A study of Mus musculus with 12 samples.

Results

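The genes described here are 10 genes of bone morphogenetic protein (BMP) signaling among the 18926 genes of the deposited tables. They are the ligands *Bmp4*, *Bmp2* and *Bmp7*, the receptors *Bmpr1a* and *Bmpr2*, the target genes *Id1*, *Id2* and *Id3*, and the inhibitory Smads *Smad6* and *Smad7*. Each was taken by its gene symbol, and all 10 passed the filter on low counts, as did 18053 genes in all. RNA was sequenced in 12 libraries of S1 cells, 3 in each of 4 groups by their labels: control, *Nf2*-KO, double-KO and *Rasa1*-KO. S1 is a cell line from a gastric cancer of a mouse with *Cdh1* F/+, *Trp53* F/F and *Smad4* F/F alleles, so every group carries the engineered alleles of these genes. According to the study's methods, pools of Cas9-expressing S1 cells received lentiviral guide RNAs against *Nf2*, *Rasa1* or both, and control cells a non-targeting guide. The cells grew as tumorspheres in serum-free medium with epidermal growth factor, whereas the sample labels call them monolayer cells. *Nf2* encodes merlin, an upstream activator of the Hippo pathway, and *Rasa1* encodes a GTPase-activating protein that turns Ras off. The study's text names the replicates of its RNA profiles technical, so the p-values measure the spread between these libraries and perhaps not between cultures.

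BMP ligands bind a complex of type I and type II receptor kinases, which phosphorylates a group of receptor-regulated Smads. These join Smad4, enter the nucleus and switch on target genes, of which the *Id* genes and the inhibitory Smads are the best known. Id proteins bind E proteins, a class of transcription factors, and keep them from DNA. Smad6 and Smad7 act back on the receptors and close a negative feedback loop. In the gastrointestinal mucosa, BMP signaling is known to favour differentiation over proliferation. The comparisons ask whether the BMP target genes moved where *Bmp4* did, in a line from a tumor engineered to lose *Smad4*.

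Total counts were between 43818139 and 96674463 per library. The levels of the targeted genes went against the labels of a pair of groups. *Nf2* stood at 55.4 to 61.0 CPM (read counts scaled to library size) in control, 13.2 to 14.3 in *Nf2*-KO, 11.6 to 12.1 in the libraries labelled *Rasa1*-KO and 56.4 to 62.6 in those labelled double-KO. *Rasa1* stood at 60.5 to 78.5, 97.2 to 101, 30.4 to 34.5 and 17.7 to 23.3 CPM in the same order. The libraries labelled *Rasa1*-KO were thus low in both targeted genes, and those labelled double-KO in *Rasa1* but not in *Nf2*. The sample names inside the deposited tables also give these groups the other way round. The groups are therefore called by their labels, and results that depend on the exchange are given both ways. A control library, the one without a number in its label, stood apart: it lay nearer to library 1 of the group labelled double-KO than to either of the other controls. Control library 1 likewise lay nearest to library 3 of that group. For the BMP genes listed at the start, calls against control that change when the unnumbered control is left out are given both ways. Calls of all other genes, such as *Smad1*, *Smad5*, *Smad3* and the further pathway and marker genes, are given with all libraries only. Whether those calls hold without the unnumbered control was not tested.

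**Figure D1:**
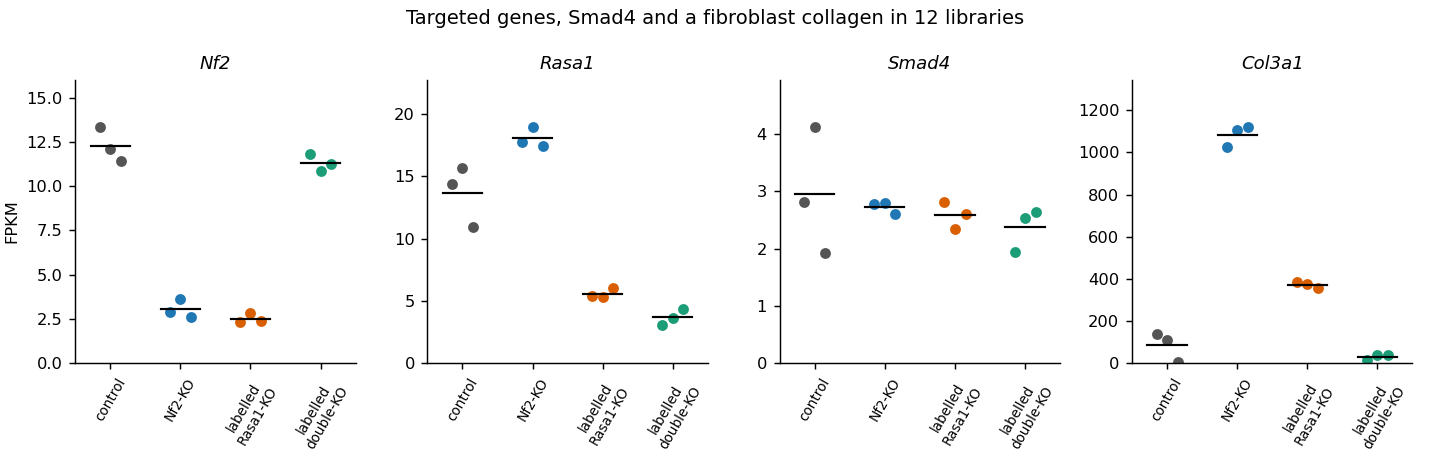
FPKM (counts per length of transcript and depth) of the targeted genes *Nf2* and *Rasa1*, of *Smad4* and of the collagen gene *Col3a1*, by labelled group. Points are libraries and bars are means of 3; *Nf2* is low in *Nf2*-KO and labelled *Rasa1*-KO libraries, and *Rasa1* in both groups labelled with its loss.

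Promoter sequences were looked up for the 10 genes in RefSeq (GRCm38.p6), and 6 had an entry; *Bmp2*, *Bmp7*, *Id1* and *Smad7* had none. Windows from 250 bases before to 30 after the start given with each promoter entry were searched on both strands for 3 motifs. These were the palindromic Smad box GTCTAGAC, the GC-rich site GGCGCC known to bind BMP Smads, and the site GGAATG of the TEAD factors, the DNA-binding partners of YAP. No motif overlapped another in these windows. Of all 32851 promoters in the table, 0.192% held GTCTAGAC, 10.9% GGCGCC and 13.9% GGAATG. *Bmpr1a*, *Bmpr2* and *Id2* each held a GGCGCC, *Id3* held GGAATG on the strand opposite to the gene, *Smad6* held GTCTAGAC across the start given in that table, from base -4 to base 4, and *Bmp4* held none of the motifs. A match is only a match of letters. For *Bmpr1a* the 250 bases searched before the start (chr14:34502547-34502796) lie inside the gene position given below, as does the Smad box of *Smad6*. Shown are the 250 bases before the start of *Bmp4* (minus strand, chr14:46390670-46390919), the ligand called in all 3 comparisons with control. With it are the windows of the target genes *Id2* (minus strand, chr12:25096093-25096342) and *Id3* (plus strand, chr4:136143572-136143821), and the 30 bases around the Smad box of *Smad6* (minus strand, chr9:64022045-64022074). Capitals mark the motifs.
Bmp4: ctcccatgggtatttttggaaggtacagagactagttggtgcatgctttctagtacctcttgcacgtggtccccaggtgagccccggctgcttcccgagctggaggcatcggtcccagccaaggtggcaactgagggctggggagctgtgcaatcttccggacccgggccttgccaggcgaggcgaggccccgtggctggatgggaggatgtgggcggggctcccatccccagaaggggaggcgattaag
Id2: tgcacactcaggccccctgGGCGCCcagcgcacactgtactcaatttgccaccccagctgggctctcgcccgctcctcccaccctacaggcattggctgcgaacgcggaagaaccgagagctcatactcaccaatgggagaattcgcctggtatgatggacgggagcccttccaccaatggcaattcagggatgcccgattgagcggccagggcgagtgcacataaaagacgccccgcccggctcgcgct
Id3: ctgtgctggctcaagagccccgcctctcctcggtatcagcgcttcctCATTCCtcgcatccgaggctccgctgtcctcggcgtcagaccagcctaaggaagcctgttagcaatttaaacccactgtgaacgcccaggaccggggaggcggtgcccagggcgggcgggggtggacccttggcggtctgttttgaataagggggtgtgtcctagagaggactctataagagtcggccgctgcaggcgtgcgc
Smad6: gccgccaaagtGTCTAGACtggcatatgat

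*Bmp4* was higher than in control in all 3 other groups, while *Bmp2* did not pass the edgeR test over all libraries in any group and *Bmp7* was barely expressed. *Bmp4* (chr14:46383525-46390669) encodes a secreted BMP of the same subfamily as Bmp2. It stood at 27.5, 23.5 and 24.4 CPM in control libraries 1, 2 and the one without a number. The *Nf2*-KO libraries held 64.0, 65.6 and 63.5 CPM, and those labelled *Rasa1*-KO 69.0, 69.0 and 67.2. Those labelled double-KO held 42.2, 48.1 and 55.2 CPM. No group overlapped control, and the group labelled double-KO lay between control and the other groups. The log2 fold change against control was 1.36 ± 0.11 (SE, n = 3 against 3, 2.56-fold, adjusted p = 2.29e-06) in *Nf2*-KO libraries. It was 1.45 ± 0.11 (2.72-fold, adjusted p = 2.35e-06) in the libraries labelled *Rasa1*-KO and 0.95 ± 0.11 (1.93-fold, adjusted p = 0.000625) in those labelled double-KO. All adjusted p-values are from edgeR's quasi-likelihood test with Benjamini-Hochberg adjustment over 18053 genes, and genes with adjusted p under 0.05 are called. Between the groups labelled *Rasa1*-KO and *Nf2*-KO *Bmp4* differed by 0.09 ± 0.11 (log2, adjusted p = 0.803, 95% interval -0.15 to 0.32). The long non-coding RNA gene *Gm15222*, which overlaps *Bmp4*, held 84 to 249 counts per library against 1182 to 5751 of *Bmp4*; whether the counting used strand is not stated in the sources used here.

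Neither of the other ligands passed the test in all 3 groups. *Bmp2* (chr2:133552159-133562896), at 19.8 to 30.8 CPM in control, stood at 22.5 to 27.5 in *Nf2*-KO and 32.3 to 34.3 in the libraries labelled *Rasa1*-KO. Its log2 fold changes were -0.05 ± 0.22 (adjusted p = 0.87) and 0.38 ± 0.22 (adjusted p = 0.189). In the group labelled double-KO, library 1 held 25.7 CPM and libraries 2 and 3 held 46.3 and 48.2, a log2 fold change of 0.66 ± 0.22 (adjusted p = 0.107). Without library 1 it was 0.90 (adjusted p = 0.00992), and 0.75 (adjusted p = 0.000643) without both library 1 and the control that has no number. DESeq2 over all libraries called *Bmp2* higher in this group, at 0.68 (adjusted p = 0.034). The call thus rests on which libraries and which test are taken. *Bmp7* (chr2:172868012-172940321), known for its part in kidney and eye development, had 4 to 77 counts per library and 0.0117 to 0.204 FPKM. Its highest control was the library without a number at 0.818 CPM, with the other controls at 0.272 and 0.278. *Bmp7* was lower in the libraries labelled double-KO, at 0.0502 to 0.161 CPM, by 2.01 ± 0.52 (log2, adjusted p = 0.0404), a call lost with any library of that group left out (highest adjusted p 0.152). Without the control that has no number the value was -1.26 and still called. Leaving out the control without a number, *Bmp7* was instead called higher in *Nf2*-KO, by 1.33 (log2, adjusted p = 0.0142), against 0.57 ± 0.47 with it (adjusted p = 0.338).

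**Figure D2:**
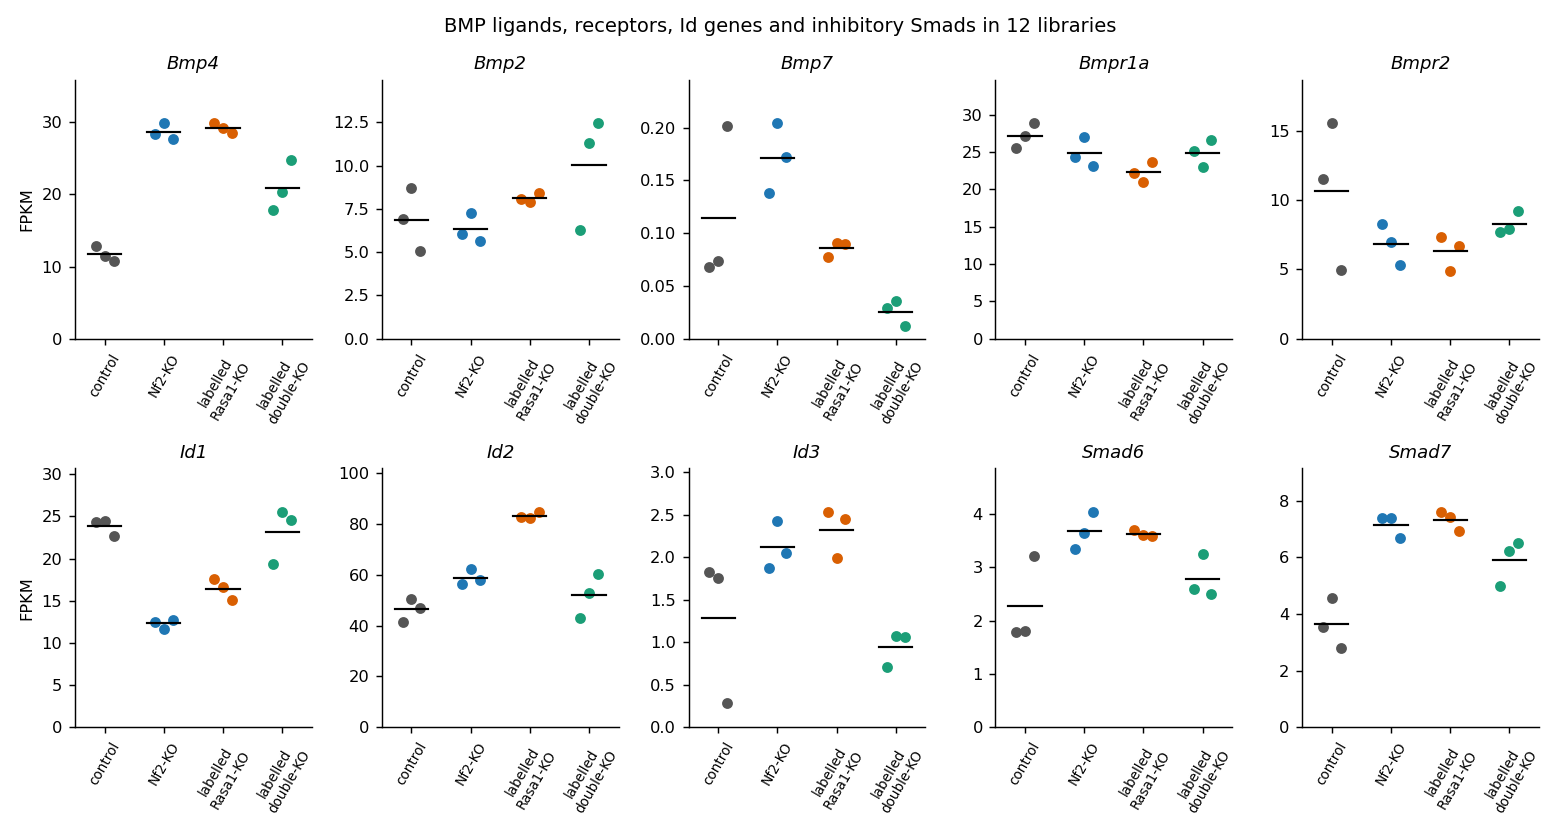
FPKM of the 10 genes (vertical axes, linear from 0, a scale for each panel) in the 4 labelled groups. Points are libraries and bars are means of 3; *Bmp4* and *Smad7* are above all controls in the other 3 groups, while *Id1* is below them in *Nf2*-KO and labelled *Rasa1*-KO libraries.

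The receptors were expressed in every library and passed the edgeR test in no comparison with control. *Bmpr1a* (chr14:34411061-34503336), the type I receptor for Bmp2 and Bmp4, stood at 148 to 177 CPM in control, 145 to 161 in *Nf2*-KO, 134 to 153 in the libraries labelled *Rasa1*-KO and 146 to 161 where the label was double-KO. All groups overlapped. Its log2 fold change was -0.06 ± 0.10 in *Nf2*-KO, with a 95% interval of -0.28 to 0.16. With the label *Rasa1*-KO it was -0.14 ± 0.10 (adjusted p = 0.27), whereas limma on log2(FPKM + 1) called it lower, at -0.28 (adjusted p = 0.0278), as it did on log2(FPKM + 0.1), at -0.29 (adjusted p = 0.03). *Bmpr2* (chr1:59764279-59878081), the type II receptor, stood at 131, 169 and 59.1 CPM in control libraries 1, 2 and the one without a number, so that the controls spanned all other libraries. Its log2 fold change was -0.56 ± 0.30 in *Nf2*-KO (adjusted p = 0.153) and -0.62 ± 0.30 in the libraries labelled *Rasa1*-KO (adjusted p = 0.123). Leaving out the control without a number, *Bmpr2* was called lower in *Nf2*-KO by 0.89 (log2, adjusted p = 0.00118), in the libraries labelled *Rasa1*-KO by 0.94 (adjusted p = 0.00079) and in those labelled double-KO by 0.56 (adjusted p = 0.0389). On the FPKM scale, which allows genes to be compared, *Bmpr1a* averaged 27.2 in control and *Bmpr2* 10.7.

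The *Id* genes did not move together. *Id1* fell and *Id2* rose in *Nf2*-KO and labelled *Rasa1*-KO libraries, and *Id3* did not pass the test. *Id1* (chr2:152736251-152737410), commonly read as a direct BMP target, stood at 25.2, 24.0 and 24.4 CPM in control libraries 1, 2 and the one without a number. The *Nf2*-KO libraries held 13.6, 12.01 and 13.7 CPM and those labelled *Rasa1*-KO 19.0, 18.4 and 16.7. Both groups lay below all controls. The libraries labelled double-KO held 21.3, 28.9 and 26.0 CPM and overlapped them. The log2 fold change of *Id1* was -0.91 ± 0.12 in *Nf2*-KO (adjusted p = 0.000111), -0.44 ± 0.12 in the libraries labelled *Rasa1*-KO (adjusted p = 0.012) and 0.05 ± 0.12 in those labelled double-KO (adjusted p = 0.856). Without the library labelled *Rasa1*-KO that has no number, the middle value was -0.39 (adjusted p = 0.0564).

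*Id2* (chr12:25093799-25096092) was the most expressed of the 10 genes per length in all 4 groups. It stood at 54.9, 63.9 and 65.7 CPM in control libraries 1, 2 and the one without a number. The *Nf2*-KO libraries held 78.6, 84.1 and 81.7 CPM, those labelled *Rasa1*-KO 118, 120 and 124, and those labelled double-KO 62.7, 77.6 and 83.0. The first 2 of these groups lay above all controls, and library 1 labelled double-KO lay among them. *Id2* rose by 0.41 ± 0.11 (log2, 1.32-fold, adjusted p = 0.0132) in *Nf2*-KO and by 0.97 ± 0.11 (1.96-fold, adjusted p = 5.47e-05) in the libraries labelled *Rasa1*-KO. Without control library 1 the value in *Nf2*-KO was 0.33 (adjusted p = 0.055). Where the label was double-KO it differed by 0.27 ± 0.11 (adjusted p = 0.188), by 0.33 (adjusted p = 0.0454) without the control that has no number, by 0.39 (adjusted p = 0.0466) without library 1 labelled double-KO, and by 0.44 (adjusted p = 0.00317) without both. *Id3* (chr4:136143822-136145392) was low, at 29 to 223 counts per library. It stood at 1.82, 1.67 and 0.308 CPM in control libraries 1, 2 and the one without a number, and at 1.96 to 2.47 in *Nf2*-KO and 2.18 to 2.71 in the libraries labelled *Rasa1*-KO. The libraries labelled double-KO held 0.787 to 1.19 CPM. The first 2 of these groups lay above all controls and the last among them. The log2 fold changes were 0.81 ± 0.47 (adjusted p = 0.183), 1.01 ± 0.47 (adjusted p = 0.108) and -0.29 ± 0.48 (adjusted p = 0.781), none called. Without the low control they were 0.34, 0.53 and -0.77, and the last was called (adjusted p = 0.0264). Without that control and library 1 labelled double-KO, *Id3* was called higher with the label *Rasa1*-KO, by 0.53 (adjusted p = 0.0239), and lower with the label double-KO, by 0.61 (adjusted p = 0.0461). The ratio of *Id2* to *Id1* in FPKM was 1.70 to 2.07 in control, 4.51 to 5.31 in *Nf2*-KO, 4.73 to 5.62 in the libraries labelled *Rasa1*-KO and 2.07 to 2.45 in those labelled double-KO.

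Both inhibitory Smads rose in *Nf2*-KO and labelled *Rasa1*-KO libraries, and *Smad7* also in those labelled double-KO. *Smad7*, which blocks BMP and TGF-beta receptors alike, stood at 16.0, 20.1 and 13.1 CPM in control libraries 1, 2 and the one without a number. The *Nf2*-KO libraries held 35.1, 34.4 and 32.5 CPM, those labelled *Rasa1*-KO 37.3, 37.0 and 34.6, and those labelled double-KO 25.3, 31.8 and 30.7. Every library of the 3 groups lay above every control. The log2 fold changes were 1.05 ± 0.15 (2.08-fold, adjusted p = 0.000153), 1.15 ± 0.15 (2.22-fold, adjusted p = 0.000106) and 0.84 ± 0.15 (1.79-fold, adjusted p = 0.00621). *Smad6* (chr9:63953076-64022085), which acts mainly on BMP receptors, stood at 5.51 and 5.32 CPM in control libraries 1 and 2 and at 10.5 in the one without a number. The *Nf2*-KO libraries held 10.8, 11.5 and 13.2 CPM, those labelled *Rasa1*-KO 12.3, 12.2 and 12.1, and those labelled double-KO 8.75, 11.1 and 8.02. *Smad6* rose by 0.73 ± 0.23 (log2, adjusted p = 0.0255) and by 0.77 ± 0.24 (adjusted p = 0.0212) in the first 2 of these groups. Each call is lost when control library 1 is left out, at 0.58 (adjusted p = 0.0925) and 0.62 (adjusted p = 0.0782). The call in *Nf2*-KO is likewise lost without control library 2 or *Nf2*-KO library 2 or 3, and that in the group labelled *Rasa1*-KO without control library 2 or any library of the group. Without the control that has no number the log2 fold changes were larger, at 1.13 and 1.17. With the label double-KO, *Smad6* differed by 0.38 ± 0.23 (adjusted p = 0.385), and by 0.78 (adjusted p = 0.00301) without that control.

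**Figure D3:**
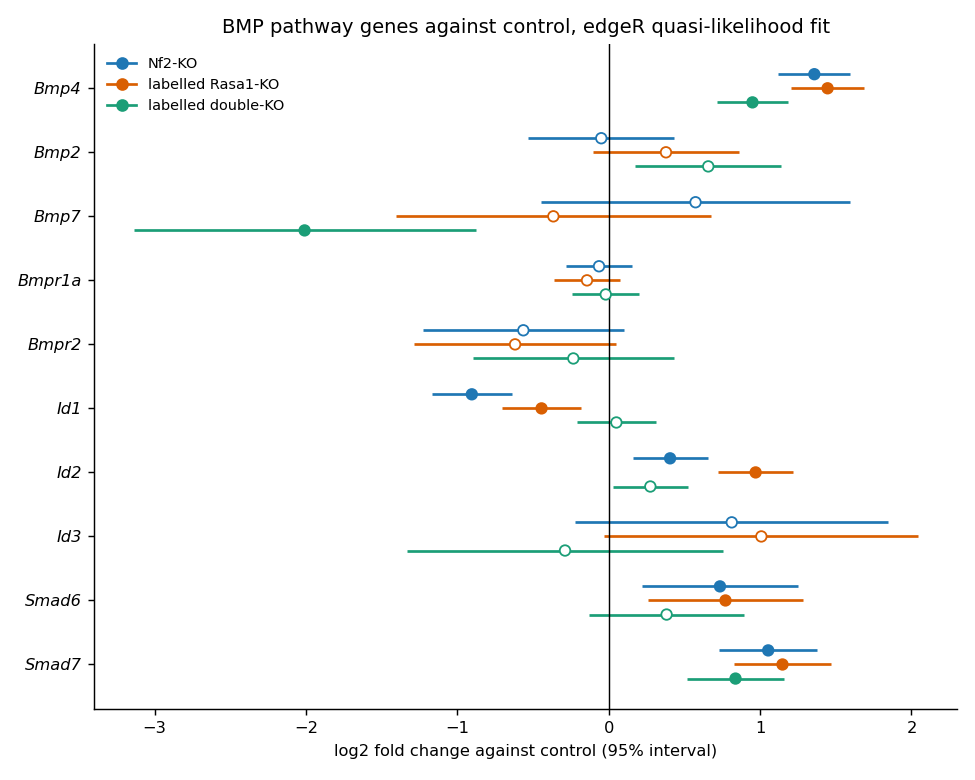
Log2 fold change against control (horizontal axis) of the 10 genes in *Nf2*-KO, labelled *Rasa1*-KO and labelled double-KO libraries, n = 3 against 3. Points are estimates, lines 95% intervals and filled points genes with adjusted p under 0.05; the intervals of *Bmp4* and *Smad7* lie above 0 in all 3 comparisons.

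By counts, 4 of the 10 genes rose (*Bmp4*, *Id2*, *Smad6* and *Smad7*) and 1 fell (*Id1*) in *Nf2*-KO, where 20.6% of all genes tested were called higher and 22.2% lower. The count was 3 without control library 1 and 7 without the control that has no number. These 5 genes passed also, in the same directions, with the label *Rasa1*-KO, where 19.7% of all genes were called higher and 22.2% lower. That count of 5 became 3 without the library of that group that has no number. In the libraries labelled double-KO 2 of the 10 rose (*Bmp4* and *Smad7*) and 1 fell (*Bmp7*), where 4% of all genes were called higher and 2.46% lower. The count of 3 became 7 without the control that has no number and 2 without library 2 or 3 labelled double-KO. With only these groups in the fit, neither *Bmp4* (adjusted p = 0.0865) nor *Smad7* (adjusted p = 0.179) was called. These comparisons share the control libraries. For the fits with a library left out, the shares of all genes called are not given here. The median log2 fold change of the 10 genes was 0.49, 0.57 and 0.16 in the 3 comparisons, beside -0.07, -0.08 and -0.04 over all genes tested. The 10 genes, *Bmp4* included, were chosen with earlier results of these data known, so these counts and medians are descriptions and no test of the set. No gene of the 10 reached a 3-fold change with raw p under 0.05 in *Nf2*-KO or labelled *Rasa1*-KO libraries, where 11.4% and 9.27% of all genes did. *Bmp7* did in those labelled double-KO, where 2.03% did. This is the rule of the study, which applied it to DESeq2 values, whereas edgeR values were used here.

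Seen beside *Bmp4* in each library, the target genes split. *Smad7* was the closest of the other 9 genes, with a root mean square difference from *Bmp4* of 0.26 in control-centred log2 CPM over the 12 libraries, and 74 genes of all were closer. *Smad6* followed at 0.56, *Id2* at 0.64 and *Id3* at 0.74, while *Id1* lay at 1.55. Of all genes, 1333 were closer to *Bmp4* than *Smad6*, 1937 than *Id2*, 2842 than *Id3* and 13157 than *Id1*. Among all genes the 5 most like *Bmp4* by this measure were *Fhad1*, *Mxi1*, *Epha2*, *Bhlhe40* and *Gm8283*, with differences of 0.0894 to 0.145. *Epha2* encodes an ephrin receptor kinase and *Bhlhe40* a transcriptional repressor of the basic helix-loop-helix class. The order of group means in FPKM also changed. In control *Bmp4* at 11.7 came after *Id2* at 46.3, *Bmpr1a* at 27.2 and *Id1* at 23.8, and its range overlapped that of *Bmpr2* below it. In *Nf2*-KO *Bmp4* at 28.7 came next after *Id2* at 58.8 and above *Bmpr1a* at 24.9, with no overlap. Where the label was double-KO, *Bmp4* at 21.0 again came after *Id1* at 23.1, and their ranges overlapped.

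**Figure D4:**
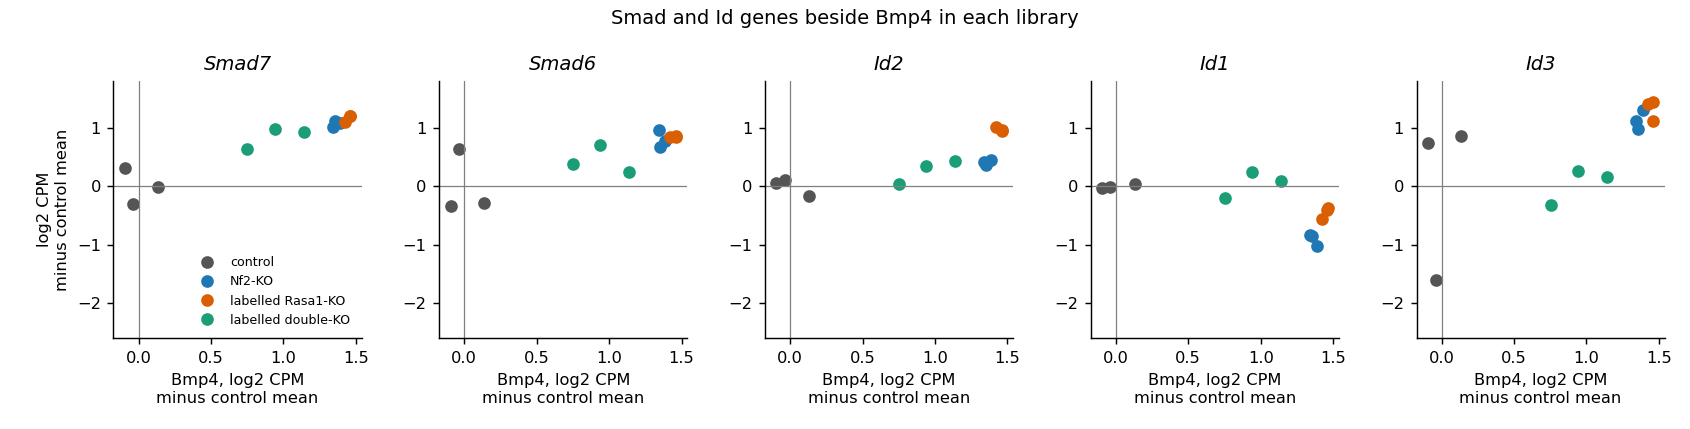
Log2 CPM minus the control mean of *Smad7*, *Smad6*, *Id2*, *Id1* and *Id3* (vertical axes) against that of *Bmp4* (horizontal axes), a point per library. With *Bmp4* to the right of control, *Smad7* lies above 0 in all 9 libraries of the other groups and *Id1* below 0 in the 6 of *Nf2*-KO and labelled *Rasa1*-KO; the low control point of *Id3* is the library without a number.

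Of the transducers between receptor and target, 5 were tested. In *Nf2*-KO 2 fell and with the label *Rasa1*-KO 1 fell, where 22.2% of all genes were lower in each. With the label double-KO 1 rose, where 4% of all genes were higher. *Smad4*, the shared partner of the receptor-regulated Smads, stood at 15.6 to 29.96 CPM in control, 21.2 to 22.2 in *Nf2*-KO, 19.6 to 23.2 in the libraries labelled *Rasa1*-KO and 16.6 to 21.4 where the label was double-KO. Its log2 fold change was -0.04 ± 0.20 in *Nf2*-KO (adjusted p = 0.886). The tables hold a single value per gene, so the floxed part of *Smad4* could not be read apart from the rest. *Smad1*, a receptor-regulated Smad of the BMP branch, fell by 0.24 ± 0.09 (log2, adjusted p = 0.0464) in *Nf2*-KO, and *Smad5* of the same branch differed by -0.17 ± 0.10 (adjusted p = 0.191). With the label *Rasa1*-KO, *Smad5* fell by 0.29 ± 0.10 (adjusted p = 0.0385), all libraries below control. *Smad9* is not among the genes analysed here. *Smad3* of the TGF-beta branch fell by 0.27 ± 0.09 (adjusted p = 0.0294) in *Nf2*-KO and rose by 0.41 ± 0.09 (adjusted p = 0.0191) in the libraries labelled double-KO. The E proteins *Tcf3*, *Tcf4* and *Tcf12*, the partners of Id proteins, passed the test in none of the 3 comparisons with control.

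Of 74 further listed genes of the pathway outside the 10, 56 were tested, and 15 rose and 18 fell in *Nf2*-KO. With the label *Rasa1*-KO, 15 rose and 17 fell, and in those labelled double-KO 4 rose and 52 were not called. Those 4 were *Fstl3*, *Msx1*, *Smad3* and *Crim1*, the last named after its values were seen. Of all genes, 20.6% were higher and 22.2% lower in *Nf2*-KO, 19.7% and 22.2% with the label *Rasa1*-KO, and 4% and 2.46% with the label double-KO.

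The secreted antagonists moved in both directions: of 13 tested, 6 rose and 6 fell in *Nf2*-KO. There 20.6% of all genes were higher and 22.2% lower. *Fstl3*, which binds activins and some BMPs, rose from 7.22 ± 2.2 FPKM (SD, n = 3) in control to 54.3 ± 1.5, a log2 change of 2.95 ± 0.20 (adjusted p = 6.49e-07). Follistatin (*Fst*), of the same family, rose from 1.37 ± 0.55 to 7.12 ± 0.89 FPKM. The chordin-like *Chrdl2* fell from 1.12 ± 0.73 to 0.128 ± 0.0091 FPKM, and *Sost*, the gene of sclerostin, from 0.344 ± 0.18 to 0.0453 ± 0.016. Of 7 proteases that process ligands or cleave chordin, 1 rose and 4 fell in *Nf2*-KO, beside the same shares of all genes. *Furin*, a convertase that processes BMP precursors, fell from 18.8 ± 7.5 to 7.85 ± 1.3 FPKM, and the tolloid-like *Tll1* from 0.669 ± 0.16 to 0.0564 ± 0.027 and *Tll2* from 0.405 ± 0.10 to 0.164 ± 0.022. *Pcsk6*, another convertase, rose from 2.13 ± 0.50 to 3.90 ± 0.34 FPKM. Among 11 receptors and co-receptors 3 rose in *Nf2*-KO and 8 were not called, again beside 20.6% higher and 22.2% lower of all genes. *Acvrl1*, a type I receptor known from endothelium, rose from 0.0978 ± 0.069 to 1.02 ± 0.099 FPKM. Endoglin (*Eng*) rose from 0.114 ± 0.052 to 0.458 ± 0.088, and *Tgfbr3* from 3.49 ± 1.7 to 8.59 ± 1.4. Of the ligands outside the 10, *Bmp8a* fell from 0.248 ± 0.085 to 0.054 ± 0.016 FPKM. With the label *Rasa1*-KO, 6 antagonists rose and 4 fell, 1 protease rose and 5 fell, and 3 receptors rose and 2 fell. With the label double-KO, 2 antagonists rose and no protease or receptor was called. Of all genes, 19.7% were higher and 22.2% lower with the former label, and 4% and 2.46% with the latter.

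Of 11 other genes known to respond to BMP that were tested, 3 rose and 2 fell in *Nf2*-KO, near the 20.6% higher and 22.2% lower of all genes. *Msx1*, a homeobox gene, rose from 1.17 ± 0.42 to 3.99 ± 0.37 FPKM (log2 change 1.86 ± 0.22, adjusted p = 4.43e-05) and noggin (*Nog*), a BMP antagonist, from 0.202 ± 0.10 to 0.539 ± 0.027. *Gata2* rose from 0.137 ± 0.068 to 0.369 ± 0.064 FPKM, while the homeobox gene *Hhex* fell from 24.0 ± 3.9 to 7.48 ± 0.81 (log2 change -1.61 ± 0.12, adjusted p = 1.01e-06). *Bambi*, a decoy receptor that is itself a BMP target, fell from 1.14 ± 0.28 to 0.527 ± 0.099 FPKM. Of the same 11, 3 rose and 2 fell with the label *Rasa1*-KO (19.7% and 22.2% of all genes), while 1 rose with the label double-KO, *Msx1* (4% of all genes rose). Of 12 intracellular inhibitors, the inhibitory Smads included, 5 rose and 4 fell in *Nf2*-KO, beside the same shares of all genes, and *Tob1*, a repressor of BMP Smads, fell from 14.1 ± 6.8 to 7.66 ± 1.1 FPKM. Among genes that answer TGF-beta, of which *Smad7* is also one, 5 of 8 rose and 2 fell in *Nf2*-KO, again beside 20.6% and 22.2% of all genes. *Itgb6* rose from 0.950 ± 0.24 to 2.74 ± 0.20 FPKM and *Bhlhe40* from 47.9 ± 3.5 to 107 ± 7.4, and *Ltbp2* fell from 38.4 ± 3.9 to 9.81 ± 0.26. Of 6 mediators that carry BMP signals without Smads, *Limk1* rose from 4.75 ± 0.78 to 7.39 ± 0.36 FPKM and *Xiap* fell from 16.9 ± 3.2 to 11.5 ± 0.89.

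**Figure D5:**
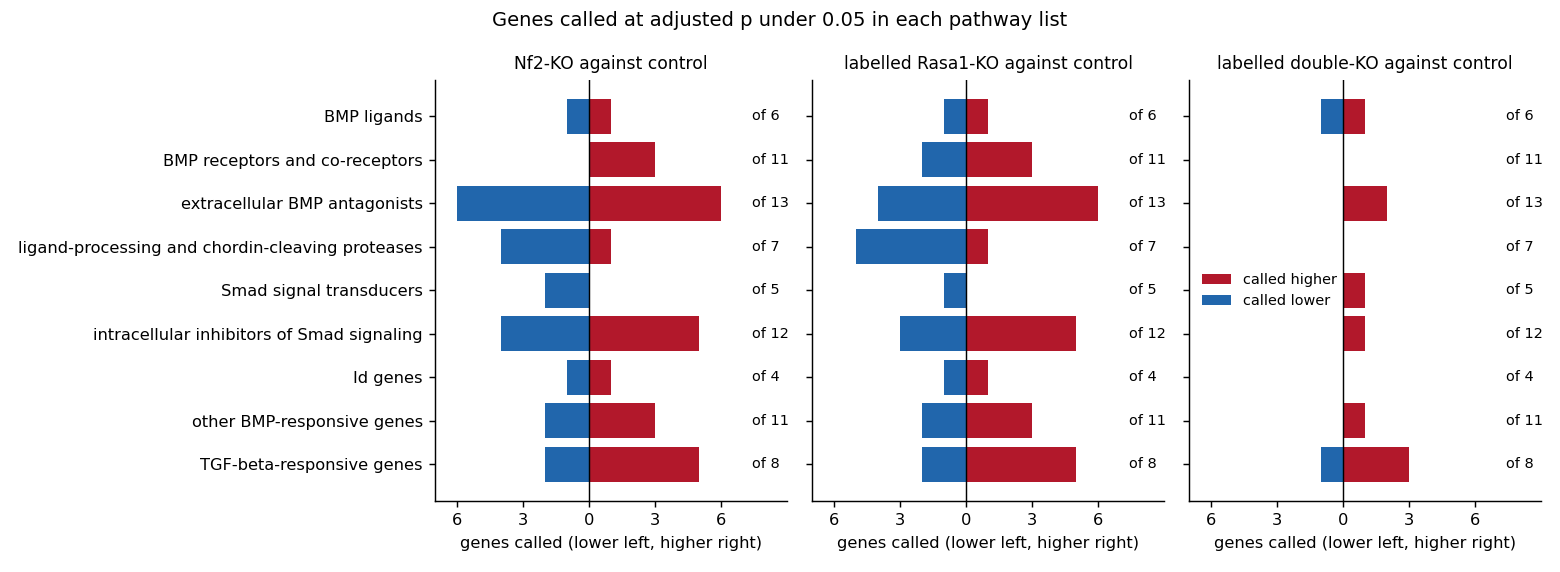
Number of genes called lower (left of 0) and higher (right of 0) at adjusted p under 0.05 in 9 pathway lists, against control in *Nf2*-KO, labelled *Rasa1*-KO and labelled double-KO libraries. The number tested stands at the right of each bar; the antagonists have 6 genes on each side in *Nf2*-KO.

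Markers of other cell types were compared in the same libraries. The epithelial list, 7 of 8 genes measured, summed to 2174 to 3595 FPKM in control, 2916 to 3146 in *Nf2*-KO, 4266 to 4367 in the libraries labelled *Rasa1*-KO, above every control, and 3521 to 3905 in those labelled double-KO. In *Nf2*-KO *Krt7* rose and *Epcam* and *Cdh1* fell. With the label *Rasa1*-KO, 4 keratin genes rose and *Epcam* and *Cdh1* fell, and with the label double-KO *Krt19* rose and *Epcam* fell. Beside these, 20.6% of all genes were called higher and 22.2% lower in *Nf2*-KO, 19.7% and 22.2% with the label *Rasa1*-KO, and 4% and 2.46% with the label double-KO. Genes of differentiated gastric mucosa, 5 of 13 measured, summed to 1.42 to 6.47 FPKM. Genes silent in any library are not analysed here, so this sum leaves out the rest of that list. The endothelial list, 2 of 4 measured, summed to 0.123 to 0.390 FPKM. In *Nf2*-KO 1 of these was called higher and 1 lower, as with the label *Rasa1*-KO, and none was called with the label double-KO. The immune list, 3 of 6 measured, summed to 4.31 to 6.83 FPKM in control, 11.1 to 11.9 in *Nf2*-KO, 14.3 to 16.5 in the libraries labelled *Rasa1*-KO and 5.19 to 12.4 in those labelled double-KO. Nearly all of it was *Cd68*, a lysosomal protein gene, while *Ptprc*, the pan-leukocyte marker, was at 0.0166 to 0.0971 FPKM over the 12 libraries. Of the 3 immune genes, 2 were called higher in *Nf2*-KO, 1 with the label *Rasa1*-KO and none with the label double-KO, and none was called lower. The fibroblast list, 5 of 6 measured, summed to 21.9 to 180 FPKM in control and 1140 to 1221 in *Nf2*-KO. It summed to 391 to 420 in the libraries labelled *Rasa1*-KO and 22.4 to 47.9 in those labelled double-KO. *Col3a1*, *Col1a1*, *Col1a2* and *Pdgfra* rose in *Nf2*-KO and labelled *Rasa1*-KO libraries, and *Dcn* fell, beside the same shares of all genes. In the libraries labelled double-KO 1 of the 5 was called lower and none higher, where 4% of all genes were called higher and 2.46% lower. The part of the epithelial, fibroblast and immune genes in the differences of *Bmp4* and the Smads was not tested. In bulk RNA, a change in the number of cells that express a gene cannot be told apart from a change in RNA per cell.

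The groups that differ in their label by *Nf2* were set against each other next. In the libraries labelled double-KO against those labelled *Rasa1*-KO, 1 of the 10 genes was higher and 3 were lower, where 16.3% of all genes were called higher and 14% lower. *Id1* was higher by 0.49 ± 0.12 (log2, adjusted p = 0.00958), *Bmp4* lower by 0.50 ± 0.11 (adjusted p = 0.00507), *Id2* lower by 0.70 ± 0.11 (adjusted p = 0.000935) and *Bmp7* lower by 1.64 ± 0.52 (adjusted p = 0.0322). The call of *Bmp7* is lost without any library labelled *Rasa1*-KO or without library 1 or 3 labelled double-KO (highest adjusted p 0.115). By the rule of the study 1 gene passed, *Bmp7*, where 5.66% of all genes did. The group with *Nf2* at the control level thus had more *Id1* and less *Bmp4* and *Id2* than the group with low *Nf2*. *Rasa1* was also lower in the former group, by 0.63 ± 0.13 (log2, adjusted p = 0.00322). Without the control that has no number and library 1 labelled double-KO, 7 of the 10 were called, and the share of all genes called in that fit is not given here. The comparison of the libraries labelled *Rasa1*-KO with *Nf2*-KO was added after the values were seen. *Id2* was higher in the former by 0.57 ± 0.11 (log2, adjusted p = 0.0185), a call lost with any library of either group left out (highest adjusted p 0.0972). No other gene of the 10 was called, where 1.92% of all genes were called higher and 1.74% lower, and none passed the rule of the study, which 1.29% of all genes did.

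Whether the labelled effects added up was tested by the interaction term of the 4 groups. As labelled, 7 of the 10 genes departed from additivity on the log2 scale, 1 above and 6 below, where 27.4% of all genes were called above and 24.9% below. By the rule of the study 3 did (*Bmp4*, *Bmp7* and *Id3*), where 25.2% of all genes did. With the labels *Rasa1*-KO and double-KO exchanged, 1 gene did, *Bmp4*, by -0.86 (adjusted p = 0.00647), where 2.69% of all genes were called above and 3.72% below, so that its level with both genes low was below the sum of the effects in the groups with 1 gene low. The departures of *Id1*, *Id2*, *Smad6*, *Smad7*, *Id3* and *Bmp7* were not called in that arrangement.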

How the data were processed

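RNA of 12 S1 libraries was prepared with the TruSeq Stranded Total RNA Gold kit, in which ribosomal RNA is removed, and sequenced in pairs on a NovaSeq. According to the study, the authors used Trimmomatic 0.38 for trimming, HISAT 2.1.0 for alignment to mm10, SAMtools 1.9, and StringTie 2.1.3b with RefSeq genes for counting; the study describes leaving out genes with zero counts before its own tests, and the strand setting is not given in the sources used here. Every gene in the tables has reads in all 12 libraries, so genes silent in any library are not analysed here. The authors deposited raw read counts per gene, which were tested here, and FPKM, counts divided by transcript length and depth, which were used to compare genes and as an alternative. Deposited TPM and normalized values were not used. Groups were taken from the genotype labels. A single edgeR 4.0.16 quasi-likelihood fit (TMM factors, filterByExpr) of the 4 groups gave 5 comparisons, with Benjamini-Hochberg adjustment over 18053 genes and a threshold of 0.05. A sixth comparison, the group labelled *Rasa1*-KO against *Nf2*-KO, was added after the values were seen. CPM are scaled by TMM. Alternatives used DESeq2 1.42.0, limma 3.58.1 on log2(FPKM + 1) and log2(FPKM + 0.1), other scalings, no filter, other groupings and left-out libraries. The fit was tested on simulated data.

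The 10 genes and all lists were chosen with earlier results of these data known. All 10 are described; of other lists up to 4 genes are named, those with the largest log2 change among genes called in *Nf2*-KO, besides *Smad4*, *Smad1*, *Smad5*, *Nf2* and *Rasa1*; an item that the rule would name is not reported here. The 5 genes most like *Bmp4* have the smallest root mean square difference in control-centred log2 CPM (prior count 2). Positions are from RefSeq on GRCm38.p6. Between replicate libraries of each group, the median chi-square value per gene was 2.16 to 38.7, beside 0.455 from sampling noise. No p-value was computed for it. Counts of 4 to 77 per library limit *Bmp7*, and 29 to 223 limit *Id3*.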

Additional observations from a re-analysis of the deposited data

Results flagged for a closer look

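Of the 10 genes, 7 departed from additivity of the groups as labelled, by a test of the interaction term in edgeR. In the same test 27.4% of all genes were called above and 24.9% below. On the log2 scale the departures were -1.85 ± 0.15 (SE, adjusted p = 1.77e-06) for *Bmp4*, -1.36 ± 0.21 (adjusted p = 0.000201) for *Smad7*, -1.12 ± 0.33 (adjusted p = 0.0139) for *Smad6* and -1.10 ± 0.16 (adjusted p = 0.00015) for *Id2*. They were -2.11 ± 0.67 (adjusted p = 0.0202) for *Id3* and -2.22 ± 0.70 (adjusted p = 0.019) for *Bmp7*, both of low counts. *Id1* departed in the other direction, by 1.40 ± 0.17 (adjusted p = 3.92e-05). These values rest on the labels of the groups that the levels of *Nf2* go against. With the labels exchanged, the departure was -0.86 for *Bmp4*, the 1 gene then called, where 2.69% of all genes were above and 3.72% below.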

How the results depend on the processing

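The calls of *Bmp4*, *Id1* and *Smad7* in *Nf2*-KO held in all 14 alternatives, with log2 fold changes of 1.23 to 1.43, -0.95 to -0.84 and 0.83 to 1.21. The replicate numbers of the labels showed no pairing: deviations of libraries with the same number correlated between -0.38 and 0.40 over 13 pairs. For other numbers the range was -0.56 to 0.44 over 24 pairs. In the deposited sample names, the control without a number and library 1 labelled double-KO both lack a number. Pairing by those names was not checked by correlation. With the label numbers as a replicate block over 10 libraries, 7 genes were called in *Nf2*-KO, 5 in the group labelled *Rasa1*-KO and 3 in that labelled double-KO. *Bmpr1a* turned to 0.032 and 0.076 in the first and last and *Bmp7* to 0.33 in the second. RLE factors and the unfiltered fit changed no count; without the filter *Bmpr1a* in the group labelled double-KO was 0.0026.

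Fitting only the groups compared left 3 genes called in *Nf2*-KO and 0 in the group labelled double-KO by edgeR, where *Bmp4* was at 0.95 (adjusted p = 0.0865), 3 genes had an unadjusted p under 0.05, and DESeq2 over all groups called 4. It gave 7 for labelled double-KO against labelled *Rasa1*-KO and 4 for labelled *Rasa1*-KO against *Nf2*-KO, for which DESeq2 gave 2. Among all genes, DESeq2 called 1266 higher and 828 lower in labelled double-KO against control, beside 722 and 444 in the main edgeR fit. For labelled *Rasa1*-KO against *Nf2*-KO it called 642 higher and 777 lower, beside 346 and 315. Numbers of all genes called in fits with left-out libraries, blocks or only the groups compared are not given here. The study's rule gave 0, 0, 1, 1, 3 and 0 genes in the order of *Nf2*-KO, labelled *Rasa1*-KO and labelled double-KO against control, labelled double-KO against labelled *Rasa1*-KO, additivity and labelled *Rasa1*-KO against *Nf2*-KO. Leaving out each library gave 3 to 7, 3 to 6, 2 to 7, 3 to 4, 7 to 8 and 0 to 0 genes in that order; in the last, edgeR gave 2 genes with an unadjusted p under 0.05 each time and DESeq2 called 2 with all libraries. Without the control that has no number and library 1 labelled double-KO the counts were 7, 7, 6, 7, 9 and 3; *Bmpr1a* was then 0.027 in *Nf2*-KO and 0.048 in the group labelled double-KO, and *Bmp7* 0.39 in the group labelled *Rasa1*-KO. Blocking by the numbers in the sample names of the tables gave 2 genes in the group labelled double-KO.

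With the labels exchanged, the counts were 3 for *Rasa1*-KO, 5 for double-KO, 1 for additivity and 4 for *Rasa1*-KO against *Nf2*-KO. *Id1* and *Id3* became 0.050 and -0.29 in *Rasa1*-KO and -0.44 and 1.01 in double-KO. Double-KO against *Rasa1*-KO changes sign by construction: *Bmp4* 0.50, *Bmp2* -0.28, *Bmp7* 1.64, *Bmpr1a* -0.12, *Bmpr2* -0.38, *Id1* -0.49, *Id2* 0.70, *Id3* 1.30, *Smad6* 0.39 and *Smad7* 0.31. Departures from additivity that turned were *Bmp2* -0.23, *Bmp7* 1.07, *Bmpr1a* -0.059, *Id2* 0.29 and *Id3* 0.48. *Rasa1*-KO against *Nf2*-KO turned for *Bmp4* -0.41, *Bmpr1a* 0.044, *Bmpr2* 0.33, *Id2* -0.13, *Id3* -1.10, *Smad6* -0.35 and *Smad7* -0.22.

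Uncalled values near 0 also changed sign with FPKM: *Id1* in the group labelled double-KO to -0.050 and -0.052, and *Smad6* in labelled *Rasa1*-KO against *Nf2*-KO to -0.013 and -0.015, for pseudocounts of 1 and 0.1. With a library left out, the range crossed 0 in *Nf2*-KO for *Bmp2* (-0.20 to 0.10) and *Bmpr1a* (-0.11 to 0.027), and in the group labelled *Rasa1*-KO for *Bmp7* (-0.63 to 0.39). In the group labelled double-KO it did for *Bmpr1a* (-0.048 to 0.071), *Bmpr2* (-0.56 to 0.10), *Id1* (-0.051 to 0.16) and *Id3* (-0.77 to 0.11), and in labelled *Rasa1*-KO against *Nf2*-KO for *Bmpr2* (-0.20 to 0.11) and *Smad6* (-0.026 to 0.12). The cause was not tested. Of 960 single-gene values under alternatives, 814 kept direction and side of the threshold, and of 102 counts 75 did.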
